A study of Mus musculus with 30 samples.

Results

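Afp, Gpc3, Igf2bp3, Sall4, Ly6d, Tff3, S100a11, Tspan8, Golm1 and Prom1 are 10 genes that are used as markers of fetal liver, of liver tumours or of the epithelial cells of bile ducts and gut. They were taken by symbol from a fixed list, through the Ensembl identifier of each gene by a rule that uses no measured value, but the list itself was drawn up with earlier results of these data known, so their counts against all genes are descriptions. All 10 were found among the 41388 genes of the deposited tables. RNA-seq was available for 20 libraries in 6 groups, and CLIP-seq, which sequences RNA crosslinked to a protein, for 10 further libraries. All 10 CLIP libraries were labelled as transgenic hepatocytes, from mice aged 12 weeks. Each RNA library was a pool of RNA from 3 to 4 mice. The hepatocyte groups were 3 pools labelled A1cf_Tg/+ and 3 pools of wild-type C57BL/6J, both from mice aged 12 weeks, with cells isolated by collagenase and kept overnight on collagen-coated dishes. The first set of whole livers held 4 pools labelled A1cf_Tg/+ and 4 pools of wild-type C57BL/6J, and the other set held 3 A1cf_-/- pools and 3 pools of wild-type C57BL/6NJ. All liver mice were 12 months old, the labels name no treatment, and the 2 liver sets were sequenced as separate studies. The promoter and the species of the A1cf transgene are not given in the sources used here. Whether a mouse gave RNA to more than 1 pool is not given in the sources used here, and p-values rest on the variation from pool to pool only.

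The fetal liver makes large amounts of alpha-fetoprotein, and the adult liver silences the gene after birth through repressors such as Zhx2 and Zbtb20. Glypican 3, IGF2BP3 and SALL4 follow a like course in many tissues: they are active in the embryo, low in adult hepatocytes, and found again in part of hepatocellular carcinomas, for which reason they are called oncofetal. Ly6d, Tff3, Tspan8 and Prom1 mark epithelia of gut, skin, bile ducts or progenitor cells, and GOLM1 and S100A11 are proteins of the Golgi membrane and of the calcium-dependent S100 family that are often raised in diseased liver.

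The promoters of 7 of the 10 genes were found in the RefSeq table of the GRCm38.p6 build; those of Sall4, Ly6d and Tff3 are not shown. The 2 windows printed belong to Afp, the classical oncofetal gene, and to S100a11, the only one of the 10 genes that passed the test in livers. Each runs 5' to 3' from 250 bases before to 50 bases after the RefSeq start, and capitals mark the matches to 4 motifs, none of which overlap: a TATA box on the sense strand, and an HNF1, an NF-Y and an AP-1 motif on either strand, with their letters given below the sequences.
Afp promoter, chr5:90490464-90490763, + strand: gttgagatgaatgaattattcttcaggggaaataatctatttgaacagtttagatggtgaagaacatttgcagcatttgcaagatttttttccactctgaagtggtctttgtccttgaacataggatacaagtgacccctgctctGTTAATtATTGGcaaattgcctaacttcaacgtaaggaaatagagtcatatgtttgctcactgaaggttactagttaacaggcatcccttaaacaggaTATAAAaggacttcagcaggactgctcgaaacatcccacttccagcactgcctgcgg
S100a11 promoter, chr3:93520246-93520545, + strand: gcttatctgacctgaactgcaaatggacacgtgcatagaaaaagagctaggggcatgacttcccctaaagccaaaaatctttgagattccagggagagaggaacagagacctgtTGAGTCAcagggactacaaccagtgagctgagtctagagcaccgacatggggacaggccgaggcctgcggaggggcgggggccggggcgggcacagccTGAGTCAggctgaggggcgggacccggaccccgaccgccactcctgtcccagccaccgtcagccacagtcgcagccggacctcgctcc
TATAAA is the TATA box core, GTTAAT is part of the site of HNF1 factors of the liver, CCAAT is the box bound by NF-Y, and TGACTCA is the site of AP-1 factors. The Afp window held TATAAA 7 bases before the RefSeq start, which is 30 bases before the gene start in GENCODE M21, with GTTAAT 105 bases and CCAAT, on the opposite strand, 98 bases before the RefSeq start. TATAAA was present in 8.32% of 32851 RefSeq promoter windows of the same length, GTTAAT in 7.10% and CCAAT in 37.4%. The S100a11 window held TGACTCA at 2 places, 136 and 38 bases before the RefSeq start and both on the opposite strand, and 5.20% of all windows held it at least once. The Prom1 window at chr5:44101687-44101986 held TGACTCA 88 bases before its RefSeq start, which is 208 bases after the gene start in GENCODE M21. The other Prom1 window, at chr5:44094719-44095018, did not hold it. These matches are descriptions of letters, and binding was not measured.

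Totals were 17044839 to 37211328 counts per RNA library. A1cf, the gene named in the labels, was listed at 24.5 ± 4.39 CPM (counts scaled to a library total of 1000000; SD, n = 3) in knockout livers and 213 ± 20.8 (n = 3) in C57BL/6NJ livers. It was not higher in libraries labelled transgenic: 163 ± 7.96 CPM (n = 4) against 232 ± 30.9 (n = 4) in C57BL/6J livers, and 9.23 ± 1.64 (n = 3) against 9.35 ± 2.51 (n = 3) in hepatocytes. The count of A1cf thus did not bear out the transgenic label in either tissue. Whether that count would include RNA of the transgene is not known, since its species is not given. These groups are called Tg-labelled below. Pool 2 of the C57BL/6J livers stood apart from the other RNA libraries of its set. It held 1734 CPM of 10 skeletal muscle genes, against at most 2.62 in the other 7 pools, 935 CPM of Xist, the RNA of the inactive X chromosome, against at most 3.91, and 0.119 CPM of the Y-linked Kdm5d, against at least 10.8. The 12 hepatocyte genes of the marker list summed to 41122 to 53923 CPM in the hepatocyte libraries and to 72394 to 114613 CPM in the livers. In such bulk samples, fewer cells of a type and less RNA per cell cannot be told apart.

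Over the 6 groups, S100a11 and Golm1 were highest in plated hepatocytes, while Ly6d, Tff3, Igf2bp3, Sall4, Gpc3, Tspan8 and Prom1 had their highest mean in Tg-labelled livers. Levels here are deposited CPM as mean ± SD over pools, and groups whose pools overlap are not told apart. Afp was highest in Tg-labelled hepatocytes at 25.9 ± 6.68, above every pool of wild-type hepatocytes at 8.20 ± 2.33. Below them followed Tg-labelled livers at 6.15 ± 2.40, C57BL/6J livers at 3.34 ± 2.08 and C57BL/6NJ livers at 2.12 ± 0.261, each overlapping its neighbour. Knockout livers were lowest, at 1.07 ± 0.252, and did not overlap the C57BL/6NJ livers.
For S100a11 the order was Tg-labelled hepatocytes at 226 ± 46.0, wild-type hepatocytes at 161 ± 57.4, Tg-labelled livers at 8.83 ± 3.52, knockout livers at 7.83 ± 0.772, C57BL/6NJ livers at 6.28 ± 1.98 and C57BL/6J livers at 1.42 ± 0.278. The pools of both hepatocyte groups lay above all livers, and the C57BL/6J livers lay below all other groups. The level of S100a11 in Tg-labelled livers thus overlapped that in C57BL/6NJ livers, and substrain and sequencing study cannot be told apart there.
Ly6d averaged 92.5 ± 110 in Tg-labelled livers and 51.5 ± 0.399 in Tg-labelled hepatocytes, with all other groups at means of 1.10 to 6.50. Tff3 had the same 2 groups on top, at 80.7 ± 77.9 and 15.0 ± 6.65, and means of 0.385 to 3.42 elsewhere. The large SDs show that the 4 Tg-labelled liver pools differed widely from each other. Igf2bp3 was at 3.50 ± 4.17 and 2.02 ± 0.370 in those groups and at means of 0.377 to 1.04 in the other 4. Sall4 was at 2.68 ± 2.25 and 0.693 ± 0.261, against means of 0.0192 to 0.181. In each of these 4 genes the pools of the 2 Tg-labelled groups overlapped, and those of Tg-labelled hepatocytes did not overlap the group that ranked next.
Per length, in deposited RPKM (reads scaled by gene length and library size), S100a11 was the most abundant of the 10 genes in wild-type hepatocytes at 314 ± 112 and Sall4 the least at 0.00346 ± 0.00301. In Tg-labelled livers, Tff3 at 164 ± 158 and Ly6d at 124 ± 147 RPKM had the highest levels per length, with Gpc3 at 1.07 ± 0.492 and Sall4 at 0.484 ± 0.407 near the low end.

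**Figure D1:**
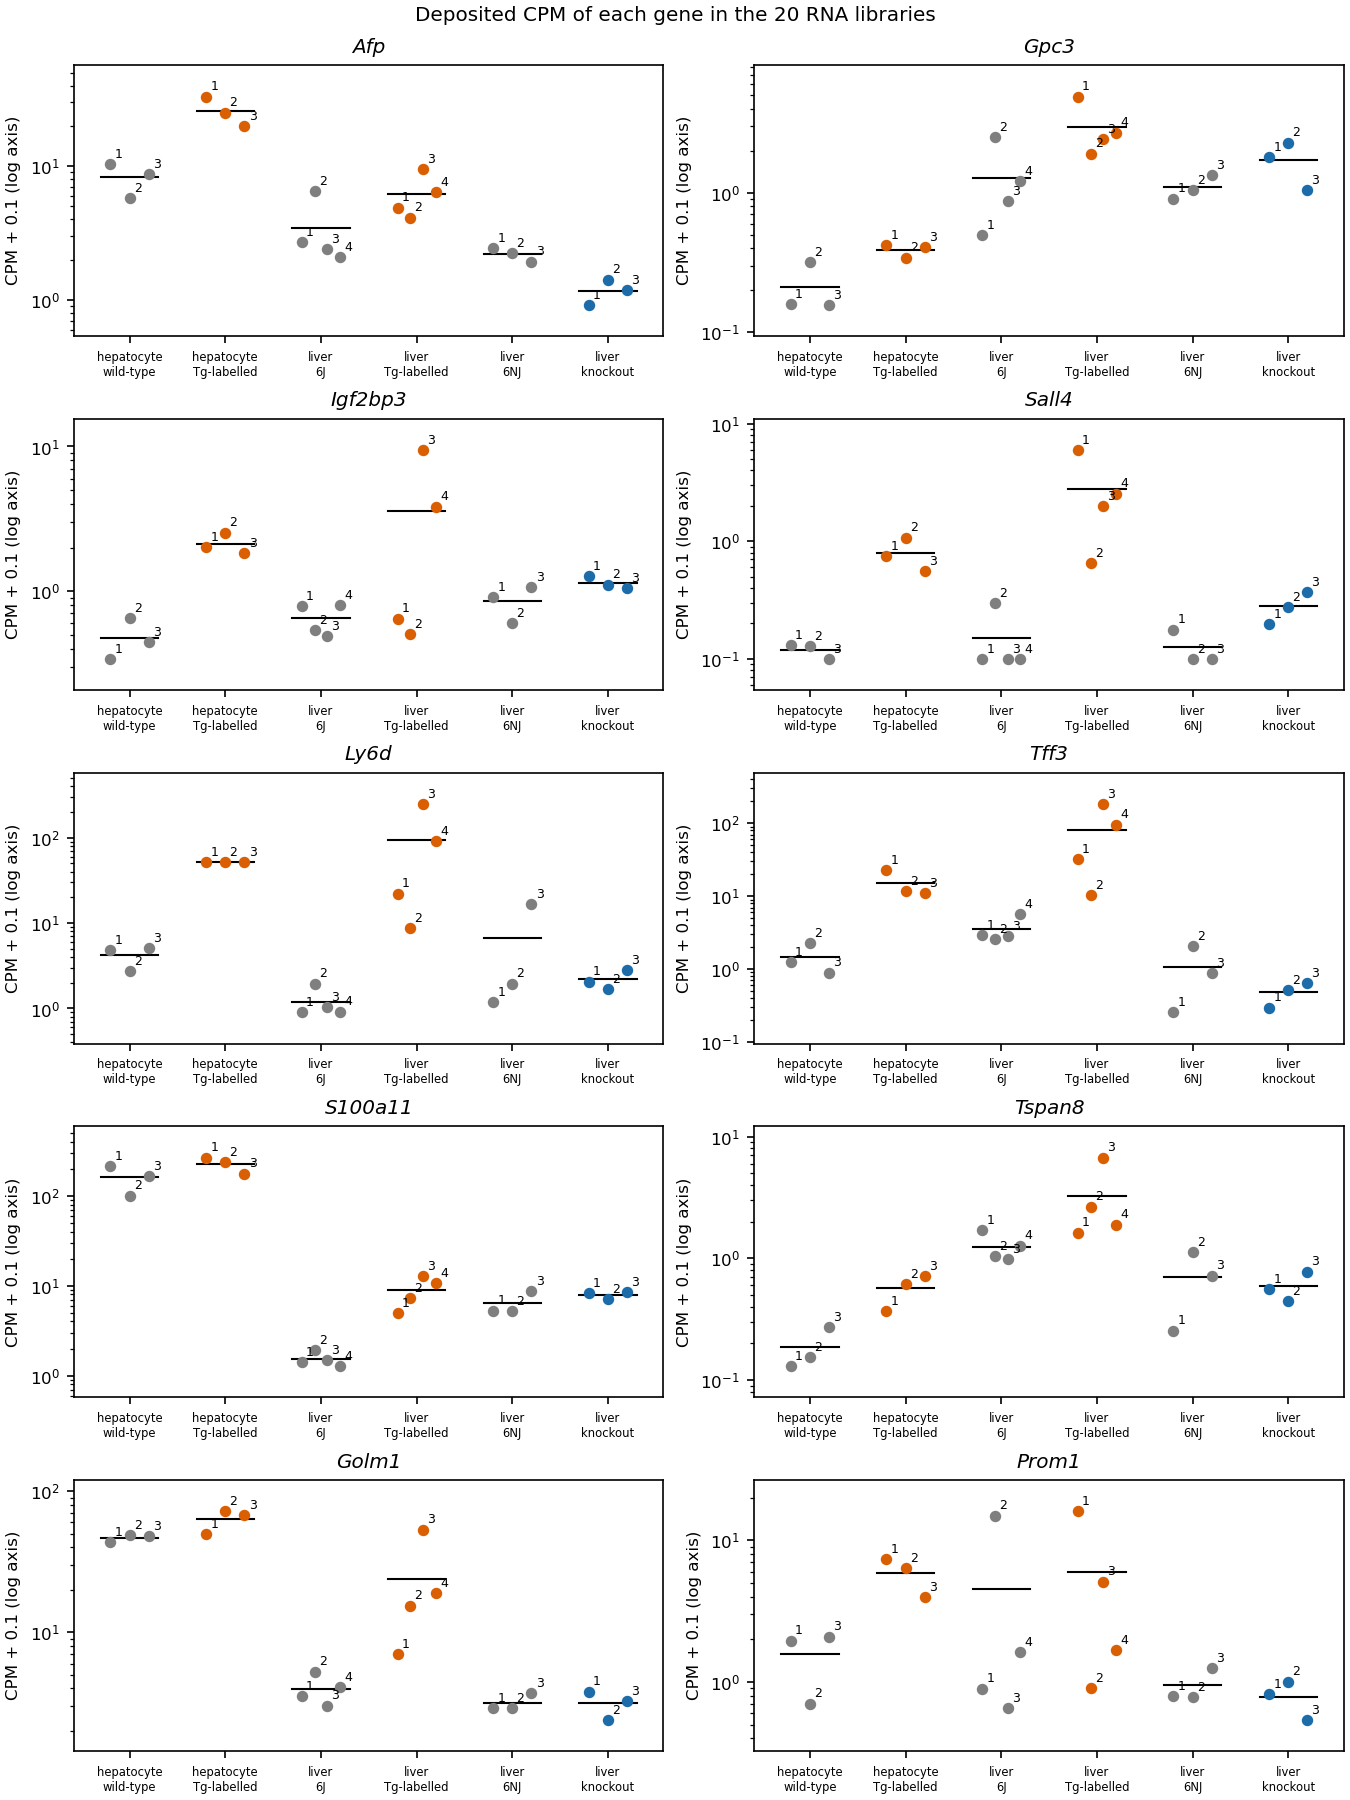
Deposited CPM plus 0.1 on a log axis for each of the 10 genes, with 1 point per library, numbered by pool, and a line at the group mean. The 3 Tg-labelled hepatocyte pools of Ly6d sit close to 51.5 CPM, while its 4 Tg-labelled liver pools spread from 8.64 to 248 CPM.

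In hepatocytes, 5 of the 10 genes rose in Tg-labelled pools: Afp, Igf2bp3, Sall4, Ly6d and Tff3. Ly6d, which encodes a GPI-anchored protein of the Ly6 family, was higher by 3.70 on the log2 scale, and Afp, with the smallest estimate of the 5, was 3.28-fold higher. Of the 10 genes 8 passed the filter on low counts. Of these 8, 5 were called higher and 0 lower at an adjusted p below 0.05. Among all 13770 genes tested, 1.46% were called higher. Sall4, with 2 counts over the wild-type pools, passed that filter through its Tg-labelled pools alone. Igf2bp3 also needed its Tg-labelled pools to pass, since its wild-type pool 1, with 8 counts, fell short of the filter. The places of Sall4 and Igf2bp3 among the 8 and the 5 were thus set in part by the group where they were high. The median log2 fold change was 2.23 over the 8 genes and -0.02 over all genes tested. The pools of the 2 groups did not overlap for 9 of the 10 genes, Tg-labelled above wild-type each time; among the 8 tested genes this held for 7, and among all genes tested for 16.5%. The values that follow are CPM scaled by TMM factors, in the order of pools 1 to 3.

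Afp (chr5:90490714-90508907) encodes the main plasma protein of the fetus. Its level was 35.6, 24.3 and 19.7 in Tg-labelled pools and 10.4, 5.63 and 8.32 in wild-type pools. The lowest Tg-labelled pool was thus above the highest wild-type pool, and the log2 fold change was 1.71 ± 0.31 (SE; adjusted p = 0.0411).
Golm1 (chr13:59634996-59675784), the Golgi membrane protein also called GP73, was at 53.6, 69.9 and 67.7 against 43.7, 48.4 and 46.2. These pools did not overlap either, but the difference of 0.47 ± 0.15 did not pass the test (adjusted p = 0.115).
Gpc3 (chrX:52272426-52613950), a heparan sulphate proteoglycan held to the cell surface by a lipid anchor, was near the limit of detection and below the filter. It gave 12, 8 and 8 counts in Tg-labelled pools and 2, 8 and 2 in wild-type pools. The ratio of pooled counts, each over the pooled total of its libraries, was 2.54, with a 95% interval of 1.25 to 5.49 that covers counting error only.

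Igf2bp3 (chr6:49085221-49214954) encodes an RNA-binding protein of the embryo that binds Igf2 mRNA. It was listed at 2.06, 2.37 and 1.71 in Tg-labelled pools and 0.243, 0.544 and 0.328 in wild-type pools. Every Tg-labelled pool was above every wild-type pool, with a log2 fold change of 2.45 ± 0.38 (adjusted p = 0.0311). The protein-coding gene Malsu1 overlaps Igf2bp3 on the opposite strand, and the strand setting of the counting is not given in the sources used here; Malsu1 itself differed by 0.24 ± 0.21 (adjusted p = 0.431).
Sall4 (chr2:168748332-168767943), a zinc finger transcription factor of embryonic stem cells and fetal liver, rested on few counts. It had 24, 32 and 12 counts in Tg-labelled pools and 1, 1 and 0 in wild-type pools. The ratio of pooled counts over pooled totals was 37.1, with a counting interval of 9.87 to 312, and the gene passed the test (adjusted p = 0.0254).

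Ly6d (chr15:74762056-74763620) is a marker of squamous epithelium and of early B cells. Its scaled level was 56.0, 49.9 and 50.9 in Tg-labelled pools and 4.73, 2.61 and 4.76 in wild-type pools. The Tg-labelled pools lay close together and far above all wild-type pools, a log2 fold change of 3.70 ± 0.27 (adjusted p = 0.00628).
Tff3 (chr17:31125306-31129646), the trefoil peptide secreted by mucus-producing epithelia and bile ducts, was at 24.5, 11.2 and 10.8 against 1.15, 2.18 and 0.766. Pool 1 was the highest, and the groups did not overlap; the log2 fold change was 3.50 ± 0.51 (adjusted p = 0.0289).
Prom1 (chr5:43993625-44102032), the pentaspan protein CD133 of progenitor and bile duct cells, was at 7.83, 6.10 and 3.85 against 1.88, 0.598 and 1.91. The groups did not overlap, but the difference of 2.02 ± 0.49 did not pass the test (adjusted p = 0.0721).
Tspan8 (chr10:115817284-115849893), a tetraspanin of epithelial cells, was below the filter with 10, 17 and 16 counts against 1, 2 and 6. Its ratio of pooled counts over pooled totals was 5.21, with a counting interval of 2.50 to 12.1.
S100a11 (chr3:93520488-93526287), a calcium-binding protein that pairs with annexins, was at 287, 231 and 175 against 217, 99.5 and 160. The pools overlapped, and the difference of 0.54 ± 0.31 did not pass the test (adjusted p = 0.263). A pseudogene named S100a11-ps had 1 count over the 6 hepatocyte libraries; how reads that align to both copies were treated is not given in the sources used here.

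These calls depended on single pools. Without wild-type pool 3, 0 of the 10 genes and 0% of all genes tested were called higher. Ly6d was the 1 gene of the 10 called without Tg-labelled pool 1, where 0.154% of all genes were called higher, without Tg-labelled pool 2 (0.07%) and without wild-type pool 1 (0.182%). Igf2bp3, Ly6d and Tff3 were called without wild-type pool 2 (0.43%). Leaving out Tg-labelled pool 3 gave 6 of the 10 genes, Prom1 being added, but also 13.7% of all genes called higher. The calls of all genes thus moved with those of the 10. The estimates themselves moved less: over the 6 fits the log2 fold change ran from 1.46 to 1.94 for Afp, from 3.49 to 3.84 for Ly6d and from 3.03 to 4.04 for Tff3. The share of counts from mitochondrial genes was 1.40, 1.39 and 3.48% in Tg-labelled pools and 2.01, 3.71 and 3.14% in wild-type pools, so that pools of both groups fell into a lower and a higher set. The lower set held Tg-labelled pools 1 and 2 and wild-type pool 1, and the higher set the other 3 pools, so that 1 group had a lone pool in each and no test is read from them. Within these sets, which were formed after seeing the data, the log2 fold change of Afp was 1.57 and 1.50, that of Ly6d 3.53 and 3.79, and that of Tff3 3.99 and 2.88. DESeq2 called 7 of 9 tested genes higher, where it called 5.79% of all genes higher.

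Markers of other cells also differed between these groups. The summed level of 8 T and NK cell genes was 469 to 642 CPM in Tg-labelled and 203 to 262 in wild-type pools. Ccl5 was the 1 gene of these that passed the filter, and it rose by 1.29 ± 0.20. Its own level was 564 ± 119 against 230 ± 34.7 scaled CPM (mean ± SD), so this sum was mostly that of 1 gene. The 8 B and plasma cell genes summed to 9.41 to 15.0 CPM against 2.85 to 3.93, with Ighm, the heavy chain of IgM, up by 3.01 ± 0.23. Ighm alone was at 9.12 ± 1.63 against 1.13 ± 0.13 scaled CPM, so it made up most of the Tg-labelled sum. The only other tested gene was not called and had a negative estimate. For 12 Kupffer cell and macrophage genes the sums were 346 to 662 against 207 to 318 CPM and 0 of the 12 were called. The 10 stellate cell and fibroblast genes summed to 32.9 to 53.5 against 22.02 to 29.6 CPM, with 0 of 5 tested genes called. The 10 skeletal muscle genes summed to 17.2 to 46.5 against 4.78 to 12.1 CPM, with 0 of 2 called and Myh4, Tnnt3 and Tnnc2 at 0 in these libraries. The 9 exocrine pancreas genes summed to 5.39 to 7.15 against 4.26 to 4.48 CPM, with the 1 tested gene not called. None of these sums overlapped between the groups. The 7 adipocyte genes summed to 122 to 399 against 135 to 566 CPM, and of 3 tested Cidec, a lipid droplet protein, rose by 2.79 ± 0.35 and Cfd, the adipokine adipsin, by 5.56 ± 0.79, with Adipoq at 0. The 18 progenitor and bile duct genes summed to 1852 to 1875 CPM against 1838 to 2453, with Krt23 up by 4.07 ± 0.37 and Pkhd1 down by 1.14 ± 0.19 among 14 tested. The part of these cells in the results was not tested.

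**Figure D2:**
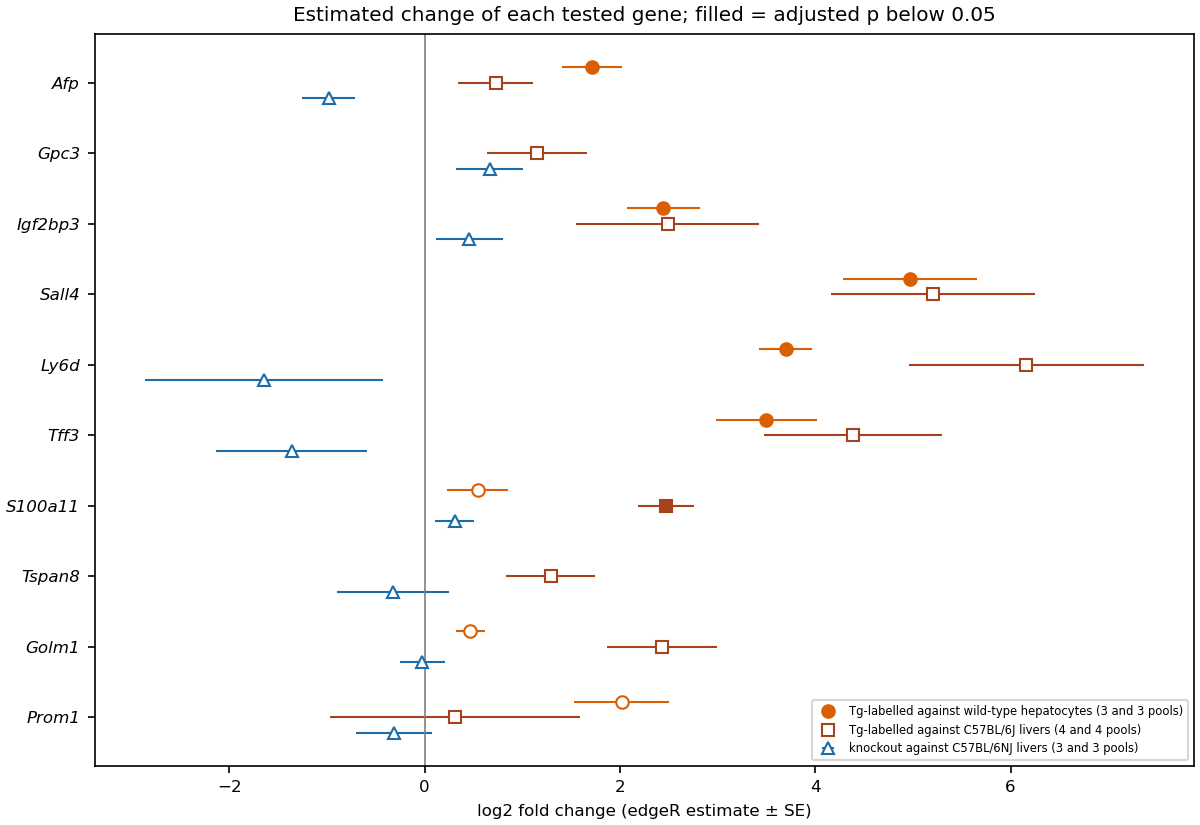
Log2 fold change ± SE from edgeR for each gene that passed the filter in hepatocytes (circles), Tg-labelled livers (squares) and knockout livers (triangles), with filled symbols at an adjusted p below 0.05. Filled circles mark Afp, Igf2bp3, Sall4, Ly6d and Tff3, and the only filled square is S100a11; the Sall4 estimates rest on 2 and 5 control counts and depend on the prior count of the fit.

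In whole livers, S100a11 rose in Tg-labelled pools, 5.55-fold, and the other 9 genes had estimates above 0 that did not pass the test. The filter was passed by 10 of the 10 genes. Sall4, with 5 counts over the control pools, passed it through its Tg-labelled pools alone. Igf2bp3 also needed its Tg-labelled pools to pass, since C57BL/6J pools 2 and 3, with 11 and 7 counts, fell short of the filter. Gpc3 needed them as well, since C57BL/6J pool 1, with 7 counts, fell short. The places of Sall4, Igf2bp3 and Gpc3 among the 10 were thus set in part by the Tg-labelled pools. The counts and the median that follow include these genes. Of the 10 genes, 1 was called higher and 0 lower, where 0.964% of all 14110 genes tested were called higher. An estimate above 0 was found for 49.4% of all genes tested. The median log2 fold change was 2.45 over the 10 genes and -0.005 over all genes. At an unadjusted p below 0.05 there were 8 of the 10 genes, all higher, against 11.6% of all genes that were higher at that level. Pools did not overlap for 5 genes, namely Sall4, Ly6d, Tff3, S100a11 and Golm1, against 6.41% of all genes. Scaled CPM of pools 1 to 4 follow.

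S100a11 was at 4.90, 6.95, 11.6 and 9.79 in Tg-labelled livers and 1.37, 1.83, 1.51 and 1.25 in C57BL/6J livers. The lowest Tg-labelled pool was above the highest control pool, and the log2 fold change was 2.47 ± 0.29 (SE; adjusted p = 0.00639). The call held in 8 of 8 fits that left out 1 pool, with estimates from 2.27 to 2.64, and without C57BL/6J pool 2 it was 2.58 (adjusted p = 0.0115). S100a11-ps had 0 counts in these 8 libraries.

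Afp was at 4.85, 3.92, 8.62 and 5.85 against 2.73, 6.48, 2.53 and 2.12. Only C57BL/6J pool 2 reached into the range of the Tg-labelled pools. The difference was 0.73 ± 0.38 (adjusted p = 0.324) with that pool and 1.23 (adjusted p = 0.0610) without it.
Golm1 was at 7.0, 15.0, 48.5 and 17.5 against 3.56, 5.21, 3.20 and 4.25. All 4 Tg-labelled pools were above the controls, pool 3 by the most. The log2 fold change of 2.43 ± 0.56 did not pass (adjusted p = 0.0764), but did so without Tg-labelled pool 1 (2.71, adjusted p = 0.0250). The gene overlaps Naa35 on the opposite strand, and Naa35 differed by -0.02 ± 0.14.
Gpc3 was at 4.85, 1.76, 2.11 and 2.42 against 0.415, 2.42, 0.844 and 1.19. Tg-labelled pool 1 was the highest, and C57BL/6J pool 2 lay within the Tg-labelled range. Its difference was 1.15 ± 0.51 (adjusted p = 0.249), and 1.76 (adjusted p = 0.0798) without C57BL/6J pool 2.

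Igf2bp3 was at 0.551, 0.392, 8.48 and 3.48 in Tg-labelled livers and 0.712, 0.437, 0.422 and 0.750 in C57BL/6J livers. Only Tg-labelled pools 3 and 4 were above the controls, while pools 1 and 2 lay at control levels. The estimate of 2.49 ± 0.94 (adjusted p = 0.196) was 1.35 without Tg-labelled pool 3 (adjusted p = 0.468).
Sall4 had 107, 11, 39 and 45 counts in Tg-labelled livers and 0, 5, 0 and 0 in C57BL/6J livers. All of the control counts came from pool 2, and every Tg-labelled pool exceeded it. The ratio of pooled counts, each over the pooled total of its libraries, was 40.8 with a counting interval of 17.2 to 127, and the test gave an adjusted p of 0.0528. It passed without Tg-labelled pool 1 (adjusted p = 0.0368) and without Tg-labelled pool 2 (adjusted p = 0.0256), and had an adjusted p of 0.0688 without C57BL/6J pool 2.

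Ly6d was at 22.2, 8.42, 225 and 85.3 in Tg-labelled livers and 0.831, 1.87, 1.02 and 0.875 in C57BL/6J livers. The lowest Tg-labelled pool was above every control pool, yet the Tg-labelled pools themselves ran over a wide range. Its log2 fold change of 6.16 ± 1.20 did not pass (adjusted p = 0.0658), but did so without Tg-labelled pool 1 (adjusted p = 0.0459) or pool 2 (adjusted p = 0.0280).
Tff3 was at 32.7, 10.1, 168 and 89.3 against 2.97, 2.50, 3.01 and 5.93. All Tg-labelled pools were above all controls, and as for Ly6d pool 3 was the highest and pool 2 the lowest. The difference was 4.39 ± 0.91 (adjusted p = 0.0683), and it passed without Tg-labelled pool 2 (adjusted p = 0.0229).
Tspan8 was at 1.54, 2.50, 6.02 and 1.67 against 1.66, 0.954, 0.965 and 1.25. The groups overlapped, since Tg-labelled pool 1 was below C57BL/6J pool 1. The estimate of 1.29 ± 0.46 (adjusted p = 0.165) became 0.66 without Tg-labelled pool 3.
Prom1 was at 16.1, 0.783, 4.57 and 1.46 against 0.831, 14.9, 0.603 and 1.62. Each group held 1 high pool, Tg-labelled pool 1 and C57BL/6J pool 2, and the groups overlapped. The difference was 0.31 ± 1.28 (adjusted p = 0.916), 2.48 (adjusted p = 0.252) without C57BL/6J pool 2 and -1.02 (adjusted p = 0.682) without Tg-labelled pool 1.

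**Figure D3:**
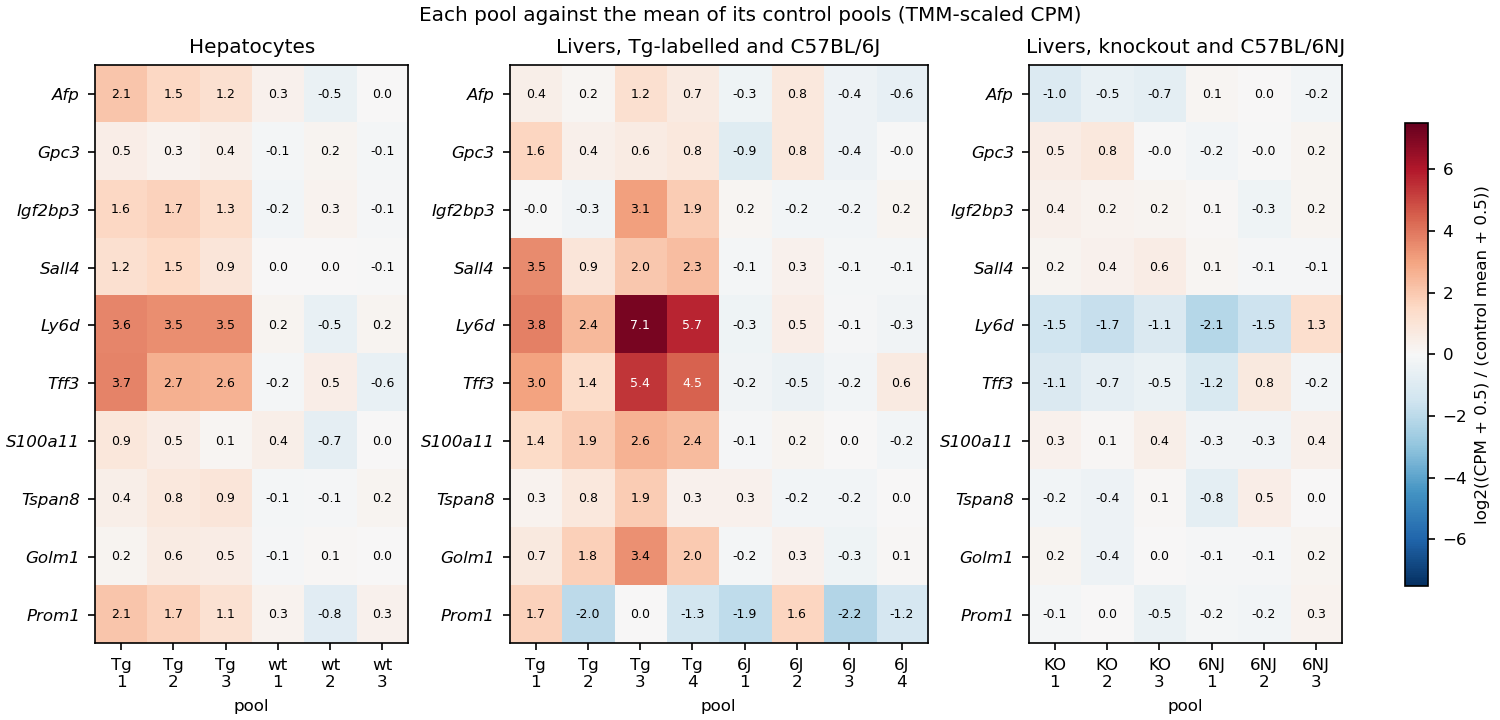
Log2 ratio of each pool to the mean of its control pools, in TMM-scaled CPM plus 0.5, for hepatocytes, Tg-labelled and C57BL/6J livers, and knockout and C57BL/6NJ livers. Tg-labelled liver pools 3 and 4 carry the highest values of Ly6d, Tff3, Igf2bp3 and Golm1, while pool 1 is highest for Sall4, Gpc3 and Prom1.

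DESeq2 called 6 of the 10 genes higher in Tg-labelled livers (Igf2bp3, Sall4, Ly6d, Tff3, S100a11 and Golm1), where it called 5.34% of all genes higher. Scaling by library totals alone moved the median of all genes from -0.005 to 0.13 and the calls from 136 higher and 53 lower to 244 higher and 35 lower; Sall4 then passed (adjusted p = 0.0431) beside S100a11, and each of the 10 estimates stayed above 0. The 18 progenitor and bile duct genes summed to 136 to 255 CPM in Tg-labelled livers and 103 to 135 in C57BL/6J livers, with 0 of 15 tested genes called. The 10 stellate cell and fibroblast genes summed to 644 to 861 against 414 to 704 CPM, with Pdgfrb up by 0.86 ± 0.14 and the other 9 tested genes not called. The 12 Kupffer cell and macrophage genes summed to 536 to 867 against 324 to 631 CPM, and 0 of 12 were called. In both of these lists the highest C57BL/6J sum was that of pool 2. The 8 neutrophil genes summed to 8.59 to 27.8 against 3.99 to 7.74 CPM without overlap, with 0 of 3 tested genes called. The 9 exocrine pancreas genes summed to 18.0 to 37.1 against 5.65 to 14.7 CPM, also without overlap, with the 1 tested gene not called and Amy2a5 and Try4 at 0. The 12 hepatocyte genes summed to 79934 to 90316 against 111042 to 114613 CPM, of which Alb, serum albumin, fell by 0.85 (SE 0.15). Alb alone was at 44435 against 80036 scaled CPM on average, so the sum followed this gene. The other 11 genes were not called, and the median log2 fold change of the list was -0.28. The part of these shifts in the results was not tested.

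**Figure D4:**
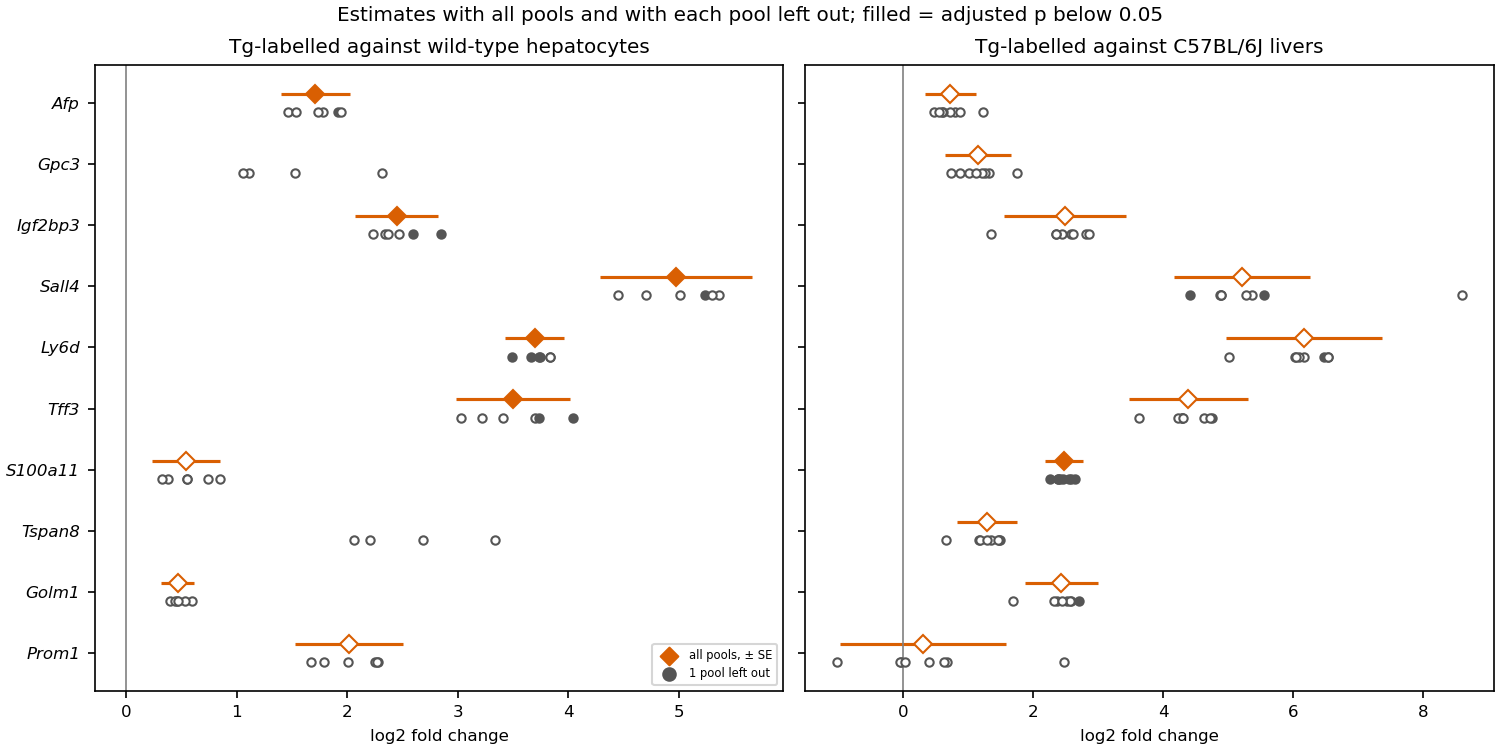
Log2 fold changes with all pools (diamonds, ± SE) and with each pool left out in turn (circles), filled at an adjusted p below 0.05, for hepatocytes and Tg-labelled livers. S100a11 in livers keeps a filled circle in 8 of 8 fits, and the liver estimates of Prom1 run from -1.02 to 2.48.

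In knockout livers, none of the 10 genes passed the test. Of the 10, 9 passed the filter and 0 of these 9 were called by edgeR, against 3.39% of 15942 genes tested that were called in either direction, and DESeq2 also called 0, against 5.30% of all genes. At an unadjusted p below 0.05 there was 1 gene, Afp, against 18.4% of all genes. The median log2 fold change was -0.31 over the 9 genes and -0.01 over all genes tested. Pools did not overlap for 3 of the 10 genes: Igf2bp3 and Sall4 were above the controls, as were 11.6% of all genes tested, and Afp was below, as were 12.7%.
Afp was at 0.814, 1.30 and 1.10 in knockout livers and 2.36, 2.19 and 1.82 in C57BL/6NJ livers. All knockout pools were below all controls, and the difference of -0.98 ± 0.27 had an adjusted p of 0.0767; it passed when no filter on low counts was applied (adjusted p = 0.0338). The counts behind it were 95 against 199.
Ly6d was at 1.95, 1.57 and 2.75 against 1.08, 1.89 and 16.4. A single C57BL/6NJ pool, pool 3, set the difference of -1.65 ± 1.22 (adjusted p = 0.565), which was 0.47 without it.
Tff3 was at 0.195, 0.409 and 0.551 against 0.155, 1.98 and 0.784, with overlapping groups and a difference of -1.36 ± 0.77 (adjusted p = 0.400). S100a11 was at 8.07, 6.82 and 8.57 against 5.19, 5.19 and 8.48, where only C57BL/6NJ pool 3 reached the knockout range; the difference was 0.31 ± 0.20 (adjusted p = 0.452).
Sall4 was below the filter with 3, 5 and 8 counts against 2, 0 and 0, a ratio of pooled counts over pooled totals of 8.56 with a counting interval of 2.01 to 76.8. Igf2bp3 was at 1.17, 0.989 and 0.964 against 0.813, 0.510 and 0.952, a difference of 0.46 ± 0.35 (adjusted p = 0.530). Gpc3, Tspan8, Golm1 and Prom1 differed by 0.67, -0.33, -0.02 and -0.31, and their pools overlapped. The 10 skeletal muscle genes summed to 17.8 to 89.3 CPM in knockout pools and 0.531 to 0.933 in controls, with Tnni2 and Mylpf called among 7 tested. The stellate cell sum was 455 to 507 against 366 to 394 CPM, but the 1 gene called of 10 tested, Acta2, fell by 0.92 (SE 0.21). The endothelial sum was 794 to 808 against 709 to 743, with 0 of 10 called. The progenitor and bile duct sum was 91.6 to 94.7 against 98.5 to 154, with 0 of 14 called. The exocrine pancreas sum was 8.69 to 10.9 against 13.8 to 17.7, with the 1 tested gene, Cela1, down by 0.77 (SE 0.14). The hepatocyte sum was 72394 to 77093 against 80553 to 88419, with Cps1 down by 0.66 (SE 0.11) and Ass1 by 0.71 (SE 0.13) among 12 tested. None of these sums overlapped. The part of these shifts in the results was not tested.

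The Tg-labelled difference was then compared between livers and hepatocytes, and with the knockout difference. Between livers and hepatocytes, edgeR called 0 of the 10 genes, against 0.835% of 15565 genes tested. At an unadjusted p below 0.05 there were 3 genes (Afp, S100a11 and Golm1), against 22.7% of all genes, and DESeq2 called S100a11 alone, against 7.45%. S100a11 had a difference of 1.73 ± 0.46 (adjusted p = 0.0790), Golm1 of 1.78 ± 0.63 (adjusted p = 0.135) and Afp of -1.18 ± 0.55 (adjusted p = 0.219). The liver mice were older, and age, culture and tissue cannot be told apart in this contrast.
The Tg-labelled difference exceeded the knockout difference for S100a11, by 2.14 ± 0.38 (adjusted p = 0.0180), the 1 gene of 10 called, against 0.773% of 16295 genes called in that direction. This call was lost without knockout pool 1 (adjusted p = 0.0664), knockout pool 2 (adjusted p = 0.0595) or C57BL/6NJ pool 3 (adjusted p = 0.0657), and held in 11 of 14 such fits. DESeq2 called 5 of the 10 genes in this contrast (Afp, Ly6d, Tff3, S100a11 and Golm1), against 2.76% of all genes. Ly6d differed by 7.78 ± 1.79 (adjusted p = 0.0729) and Tff3 by 5.75 ± 1.50 (adjusted p = 0.0992) in edgeR. The 2 liver sets were sequenced apart on different substrains, so study and substrain are part of this contrast.

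Other genes of the same kind were read from lists drawn up by function, but with earlier results of these data known. The counts of these lists are therefore descriptions. Their counts stand beside the share of all genes called, which was 1.46% higher and 1.55% lower in hepatocytes, 0.964% higher in Tg-labelled livers and 3.39% in either direction in knockout livers. H19, Gpc1 and Mcm2 are each in more than 1 list, and several lists rest on a single call. Of 40 further oncofetal and liver tumour genes, 34 were tested in hepatocytes and 8 rose, 0 fell, with a median log2 fold change of 0.51. Igdcc4, an immunoglobulin superfamily receptor, was at 3.74, 4.90 and 2.68 CPM against 0.0601, 0.0275 and 0.0854. H19, the imprinted fetal RNA, was at 0.645, 1.00 and 1.19 against 0.0901, 0.0275 and 0.0285 CPM. Both were near 0 in wild-type hepatocytes and rose in Tg-labelled ones, as did the proteoglycan gene Gpc1 by 1.44 ± 0.13 and the oxidoreductase gene Nqo1 by 0.90 ± 0.14. In Tg-labelled livers 1 of 33 rose, the replication helicase gene Mcm2 by 1.03 ± 0.16, with a list median of 1.03, and in knockout livers 0 of 33 rose and 1 fell, the imprinted gene Peg10 by 1.49 (SE 0.36), with a median of 0.05.
H19 in the Tg-labelled livers was at 13.8, 6.03, 876 and 248 CPM, and in the C57BL/6J livers at 0.114, 79.3, 0.276 and 0.939. Its 2 highest pools were Tg-labelled pools 3 and 4, as for Ly6d, Tff3 and Igf2bp3, and its high control was pool 2; the difference did not pass the test (adjusted p = 0.412).

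Among 15 known regulators of Afp, 0 rose and 1 fell in hepatocytes, the nuclear receptor gene Nr5a2 by 0.90 (SE 0.17). The repressor gene Zbtb20 had an estimate of -1.59 ± 0.38 that did not pass (adjusted p = 0.0722), and Zhx2 differed by 0.18 ± 0.17. None of the 15 was called by edgeR in either liver comparison. Of the RNA partners of the Igf2bp proteins and their kin, 3 of 9 tested genes rose in hepatocytes: the receptor gene Igf1r by 2.32 ± 0.29, H19 by 4.22 ± 0.55 and the adhesion receptor gene Cd44 by 1.27 ± 0.23. In the list of Sall4 relatives and pluripotency genes, Klf4 rose by 2.28 ± 0.29 and Sall2 fell by 2.70 (SE 0.20) in hepatocytes, Sall2 rose by 0.72 ± 0.17 in knockout livers, and Nanog was at 0 in all hepatocyte libraries.
Of 13 relatives of Ly6d, 6 were tested in hepatocytes and 3 rose: Ly6a, the stem cell antigen Sca-1, by 3.13 ± 0.48, Ly6i by 2.51 ± 0.44 and Ly6c2 by 2.53 ± 0.47. In livers 1 of 6 rose in Tg-labelled pools, Ly6e by 1.31 ± 0.21, and 1 of 5 in knockout pools, Ly6c1 by 2.24 ± 0.41. These genes lie close to each other in sequence, and reads shared between copies make single values uncertain. Of the trefoil and mucin genes related to Tff3, none was called in any comparison. The same was true of the 14 relatives of S100a11, of which 8, 10 and 9 were tested in hepatocytes, Tg-labelled livers and knockout livers. In Tg-labelled livers, estimates were above 0 for 7 of 7 tested trefoil and mucin genes and 8 of 10 S100 genes, against 49.4% of all genes. Their sums did not overlap the controls there, at 88.1 to 112 against 71.1 to 86.5 and 242 to 322 against 174 to 228 CPM. Both sums overlapped in hepatocytes. In knockout livers the S100 sums overlapped, and the trefoil and mucin sum was 7.69 to 8.99 against 5.34 to 6.64 CPM. Among 19 tetraspanins, Tspan15 rose by 4.10 ± 0.45 in hepatocytes and Cd151 by 0.62 ± 0.12 in Tg-labelled livers. In knockout livers, Casc4 rose by 0.86 ± 0.18 among 11 tested Golgi genes, and Gc fell by 0.42 (SE 0.09) among 3 genes of the albumin family. Cfd, of 3 tested adipocyte genes, rose there by 5.59 ± 0.44. Among 14 proliferation genes Mcm2 was the 1 called in Tg-labelled livers, where the list median was 1.29.

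Across the 14 liver libraries, with each of the 4 groups centred on its own mean of log2 of scaled CPM plus 1, correlations between pairs of the 10 genes differed widely. Pearson's r was 0.86 between Gpc3 and Prom1, 0.84 between Ly6d and S100a11, 0.83 between Igf2bp3 and Tff3 and 0.83 between S100a11 and Golm1. Gpc3 and Tspan8 had r = -0.44. These are descriptions over 14 libraries from shared sequencing sets, given without a test.
Genes most like 8 of the members in this measure, among 12351 genes of at least 1 CPM on average, included Tnfrsf12a for Ly6d (r = 0.98), Apela for Igf2bp3 (0.98), Rtn4r for Golm1 (0.97), Ppp1cb for S100a11 (0.96), Arpc2 for Tff3 (0.95), Tgm1 for Gpc3 (0.94), Cd52 for Afp (0.93) and Dgkh for Tspan8 (0.89). Apela, a peptide hormone of the embryo, was at 0.280, 0.0994, 16.3 and 5.63 in the Tg-labelled livers and at 0 in the other 10 liver libraries. Like Igf2bp3 it was high in Tg-labelled pools 3 and 4 alone. Tnfrsf12a, the TWEAK receptor, was at 4.76, 2.68, 19.9 and 11.8 in Tg-labelled livers and at 5.55, 8.07 and 19.8 in C57BL/6NJ livers. The same pools were high as for Ly6d. In C57BL/6J livers Tnfrsf12a was at 4.28, 5.31, 5.77 and 4.11. Unlike for Ly6d, Tg-labelled pools 1 and 2 were thus not above all of these controls. Anxa2, an annexin, was also among the 3 genes most like S100a11 (r = 0.93) and was at 20.1, 35.5, 65.7 and 39.6 in Tg-labelled livers against 12.4, 16.9, 14.1 and 13.7 in C57BL/6J livers.

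In the 10 CLIP libraries of Tg-labelled hepatocytes, which held 6151 to 10902 counts each, 9 of the 10 genes had 0 counts and Prom1 had 1. Of all 41388 genes, 5652 had a count in any of these libraries, so most genes were at 0. By a limit of 3 counts, a count of 0 allows a share of up to 0.0275% to 0.0488% of a single library and of up to 0.00371% of the 80854 counts of all 10 libraries together. These limits cover counting error only.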

How the data were processed

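The 10 genes and all gene lists were chosen with earlier results of these data known. Reads were demultiplexed with bcl2fastq, aligned to GRCm38 with STAR 2.0.4b and counted per gene with featureCounts 1.45 of the Subread package, per the submitters' processing notes; the strand setting and the handling of multi-mapped reads are not given in the sources used here. The deposited tables hold counts, CPM and RPKM that the authors computed per gene, and the deposited counts were the unit tested. Gene names came from the identifier table, which held 40254 of 41388 identifiers; 40158 overlapped their gene in GENCODE M21.

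A separate model was made for each of the 3 comparisons, from the libraries of its 2 groups: filterByExpr (minimum count 10, minimum total 15), TMM factors and the edgeR 4.0.16 quasi-likelihood test in R 4.3.3, two-sided, with Benjamini-Hochberg adjustment over all genes tested and 0.05 as the threshold. Differences between 2 comparisons were contrasts of 4 group means. A gene is said to rise or fall only where it passed. Ratios of summed counts have exact 95% binomial intervals for counting error only, since reads without molecular identifiers are not independent molecules. The script was tested on simulated data. Named genes are the 10 members, A1cf, and up to 4 called genes of smallest p per list and comparison. Of the 3 genes most like each member with a mean of at least 1 CPM in livers, only some were named. H19, Zbtb20, Zhx2, Malsu1, Naa35, Xist and Kdm5d were named beyond these rules, for context or after their values were seen. Alternatives were DESeq2 1.42.0 and its size factors, library totals, other filters, 1 fit over 6 groups, a replicate block, a mitochondrial covariate and leaving out each pool; fits within mitochondrial sets, without the pool rich in muscle RNA, and leave-one-out fits of the differences were chosen after seeing the data.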

Additional observations from a re-analysis of the deposited data

Results flagged for a closer look

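Among 20 groups of 4 pools (10 genes in each 12-month set of 4), 4 held a pool far from the other 3 by Dixon's test at the 95% level, which chance alone does in about 1 of 20. Pool 2 of the C57BL/6J livers was the outlying one for Afp (6.48 scaled CPM), Sall4 (0.199) and Prom1 (14.9), and it is the pool with muscle RNA and a high Xist level. For Sall4 the other 3 pools have 0 counts, so any count in the pool that remains meets this test, and that value says nothing of how far it lies. Pool 4 of the C57BL/6J livers was the outlying one for Tff3 (5.93). The difference between the Tg-labelled and the knockout effect in livers passed the test for S100a11 (2.14 on the log2 scale).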

How the results depend on the processing

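The number of genes called varied more than the estimates of the 10 genes. In hepatocytes it was 415, against 1816 with DESeq2, 4336 in 1 fit over all 6 RNA groups, 3513 with the mitochondrial share as a covariate and 4198 within the pools of low mitochondrial share; of the 10 genes, 8 were called within that set and 3 within the set of high share, but each set has a group with a lone pool, so these counts support nothing. In Tg-labelled livers it was 189, against 1287 with DESeq2, 921 in the fit over 6 groups and 358 without the pool with muscle RNA; 6 of the 10 genes were called with DESeq2, 6 in the fit over 6 groups and 2 with library totals only. In knockout livers it was 541, against 1424 with no filter on low counts (1 of the 10 genes, Afp), 845 with DESeq2 and 40 in the fit over 6 groups, where the estimate of Golm1 was 0.0034. For the liver minus hepatocyte difference 130 genes became 1025 with DESeq2 and 895 in the fit over 6 groups, each with 1 of the 10 genes. For the Tg-labelled minus knockout difference 204 became 799 (5 of the 10) and 110 (2 of the 10). The cause was not tested.

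Leaving out 1 pool at a time gave 0 to 4863 genes and 0 to 6 of the 10 in hepatocytes, 31 to 593 and 1 to 4 in Tg-labelled livers, 155 to 833 and 0 in knockout livers, 7 to 3552 and 0 to 1 for liver minus hepatocytes, and 25 to 473 and 0 to 3 for Tg-labelled minus knockout. Estimates that changed sign were Prom1 in Tg-labelled livers (-1.02 to 2.48), Ly6d (-2.13 to 0.47), Tspan8 (-0.74 to 0.30) and Golm1 (-0.18 to 0.15) in knockout livers, Gpc3 (-1.25 to 0.22), Igf2bp3 (-1.14 to 0.32), Sall4 (-0.49 to 4.09) and Prom1 (-3.09 to 0.28) for liver minus hepatocytes, and Prom1 (-0.70 to 2.77) for Tg-labelled minus knockout.

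Same-numbered pools did not deviate together throughout (correlations of 0.69, -0.51 and -0.03 in hepatocytes), and the main tests did not pair them. Whether some of these pools shared a preparation cannot be told from such values. With the replicate number as a block, 21 genes and 1 of the 10 were called in hepatocytes, 55 and 1 in Tg-labelled livers, and 465 and 0 in knockout livers. Depth limits Sall4, Gpc3 and Tspan8 in hepatocytes, which rest on 2 to 12 control counts.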
